A study of Mus musculus with 75 samples.

Results

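The PDGF system of the mouse kidney was followed through 6 genes, the ligand genes *Pdgfa*, *Pdgfb*, *Pdgfc*, and *Pdgfd* and the receptor genes *Pdgfra* and *Pdgfrb*. They were picked by symbol from a table of 32245 genes, and all 6 passed the filter on low counts in every comparison. The table holds RNA counts from 75 whole kidneys of adult mice, 3 days after unilateral ureteral obstruction (UUO), an operation that blocks 1 ureter and injures that kidney while the contralateral (CL) kidney serves as the control. There were 3 arms, each with a control and a treated or mutant genotype in both kidneys. In the ABTAA arm, wild-type mice received ABTAA, an antibody that binds angiopoietin-2 and activates the endothelial receptor TIE2 (label ABT, 7 CL and 7 UUO kidneys), or a control immunoglobulin (label IgG, 8 and 8). In the *Veptp* arm, floxed *Veptp* (gene symbol *Ptprb*, a phosphatase that restrains TIE2) was deleted in endothelial cells by tamoxifen through *Cdh5*-CreERT2 (label VeKO, 6 CL and 8 UUO), and the controls were wt/lox mice that carried the same Cre without induction (label VeWT, 7 and 8). In the *Pdgfb* arm, floxed *Pdgfb* was deleted throughout the body by tamoxifen through *Actb*-CreERT2, a CAG promoter transgene (label PbKO, 4 and 4), and the controls were Cre-negative wt/lox or lox/lox mice (label PbWT, 4 and 4). The genetically modified lines were of mixed background and the ABTAA arm drew on C57BL6/J mice or wild-type mice of those lines, some PbWT CL kidneys came from sham-operated mice that the labels do not mark, and a knock-in reporter at *Pdgfra* was bred into mice for some experiments of the study without being named in the labels of these libraries. Controls of the *Veptp* arm differ from the mutants in tamoxifen as well as in *Veptp*, and Cre and *Pdgfb* genotype differ together in the *Pdgfb* arm, so these cannot be told apart.

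PDGFs are dimeric growth factors that bind 2 receptor tyrosine kinases, and binding brings receptor chains together so that they phosphorylate each other and start RAS, PI3-kinase, PLC gamma, and STAT signaling. PDGFA and PDGFC act mainly through the alpha receptor and PDGFB and PDGFD mainly through the beta receptor, and the C and D ligands are secreted in a latent form that a protease must cut. In the kidney both receptors are known from pericytes, mesangial cells, and fibroblasts, and PDGFB is the ligand that recruits pericytes to capillaries and mesangial cells to the glomerulus.

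Libraries held between 172827 and 2341800 counts (median 757897). At these depths single members rested on few molecules, with 1 to 167 counts per library and none at 0. The 6 members are therefore measured with wide counting error in shallow libraries, where 1 count was worth up to 6.70 CPM (counts scaled to library size with TMM factors). In the *Veptp* arm 8 libraries have a number in their name (3, 4, 7, and 8) that carries VeKO in 1 kidney and VeWT in the other, and results of that arm are also given without them. Library names came in 2 forms, 45 plain names (such as D12) and 30 in which a letter and a number are joined by a low line (joined names), and the *Pdgfb* arm had only plain names. In 24 libraries *Xist* and the Y-linked genes *Ddx3y*, *Eif2s3y*, *Kdm5d*, and *Uty* together both reached 10 counts, including all 4 PbKO UUO, 2 PbWT UUO, and 2 PbWT CL libraries. No result on the PbKO UUO kidneys can be had without these libraries, and the part of mixed material in the results was not tested. UUO kidneys carried the marks of injury, since all 8 injured tubule markers and 5 of 5 tested fibroblast markers were higher and all 6 proximal tubule markers were lower when UUO was compared with CL over the 6 genotypes or treatments. In whole-kidney RNA, fewer cells of a type and less RNA per cell cannot be told apart, and this holds for every member below. The study's methods count each animal as 1 experimental unit. Labels say neither which CL and UUO kidneys came from the same mouse nor whether libraries are separate mice, so p-values measure the spread between libraries.

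On the mm10 build the members lie on 5 chromosomes. *Pdgfa* (5:138976014-138997370, minus strand) and *Pdgfra* (5:75152292-75198215, plus strand) share chromosome 5, *Pdgfb* is at 15:79995874-80014977 (minus), *Pdgfc* at 3:81036416-81214040 (plus), *Pdgfd* at 9:6168584-6378850 (plus), and *Pdgfrb* at 18:61045150-61085061 (plus). All are protein-coding, with 2 to 9 annotated transcripts and 7 to 27 merged exons that span 3119 to 10024 bases in the GENCODE annotation of this build.

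Genes on the opposite strand share 26.1% of the exon bases of *Pdgfa* (6330403L08Rik), 2.89% of those of *Pdgfc*, and 4.55% and 1.66% of those of *Pdgfra*. The sources used here do not say whether strand was used in counting, so reads of these genes and their antisense partners cannot be told apart.

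The upstream sequences of 3 members that moved in different ways are shown, *Pdgfa* and *Pdgfra*, which were higher in UUO kidneys, and *Pdgfc*, which was lower. Each is the 250 bases before a RefSeq start (GRCm38.p6), printed 5′ to 3′ on the strand of the gene, and capitals mark matches to the motifs searched. The windows are chr5:138994945-138995194 (minus, the farther upstream of 2 starts listed for *Pdgfa*), chr5:75152001-75152250 (plus), and chr3:81036166-81036415 (plus).
Pdgfa: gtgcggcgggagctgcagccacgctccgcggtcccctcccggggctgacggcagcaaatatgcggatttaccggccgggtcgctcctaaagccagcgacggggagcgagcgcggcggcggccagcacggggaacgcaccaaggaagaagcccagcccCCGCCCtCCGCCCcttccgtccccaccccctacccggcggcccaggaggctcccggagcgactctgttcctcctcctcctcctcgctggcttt
Pdgfra: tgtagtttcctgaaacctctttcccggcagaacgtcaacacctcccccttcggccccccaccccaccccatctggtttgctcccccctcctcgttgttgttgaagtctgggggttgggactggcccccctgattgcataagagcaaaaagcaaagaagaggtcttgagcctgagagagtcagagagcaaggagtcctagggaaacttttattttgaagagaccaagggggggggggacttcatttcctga
Pdgfc: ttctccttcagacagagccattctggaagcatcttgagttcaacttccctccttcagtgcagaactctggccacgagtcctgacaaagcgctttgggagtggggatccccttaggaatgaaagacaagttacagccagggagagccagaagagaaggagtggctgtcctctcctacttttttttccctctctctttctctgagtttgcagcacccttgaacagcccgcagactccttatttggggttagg
On both strands 5 motifs were searched in 32851 such windows of the mouse genome, the GC box GGGCGG (in 32.7% of windows), an EGR1 motif GCGNGGGCG (4.70%), an AP-1 motif TGANTCA (6.75%), the CCAAT box CCAAT (33.8%), and TATAAA (12.4%). The *Pdgfa* window held 2 GC boxes, both on the reverse strand and with no overlap, and was 72.4% G or C. The *Pdgfra* and *Pdgfc* windows held none of the 5 motifs and were 54.4% and 50.8% G or C. *Pdgfd*, which was not called in the average response, had 1 TATAAA in its window, at position -160 from the start.

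Per kilobase of merged exon the members ranked differently in the 2 kidneys. In the 36 CL libraries the median level per length ran from 7.11 CPM per kb for *Pdgfd* (SD 3.56) through 5.70 for *Pdgfa* (SD 2.14), 4.28 for *Pdgfc* (SD 1.53), 3.08 for *Pdgfb* (SD 1.37), and 3.02 for *Pdgfrb* (SD 1.39) to 1.80 for *Pdgfra* (SD 1.17). In the 39 UUO libraries *Pdgfrb* had the highest median level per length at 10.1 CPM per kb (SD 3.30), followed by *Pdgfb* at 9.64 (SD 3.39), *Pdgfa* at 8.91 (SD 3.79), *Pdgfd* at 6.90 (SD 3.48), *Pdgfra* at 4.55 (SD 1.72), and *Pdgfc* at 2.98 (SD 1.12). In both orders, neighbours differed by less than the larger of their SDs over libraries. Whether these counts grow with transcript length depends on how tagged and internal reads were used, which was not given in the sources used here.

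**Figure D1:**
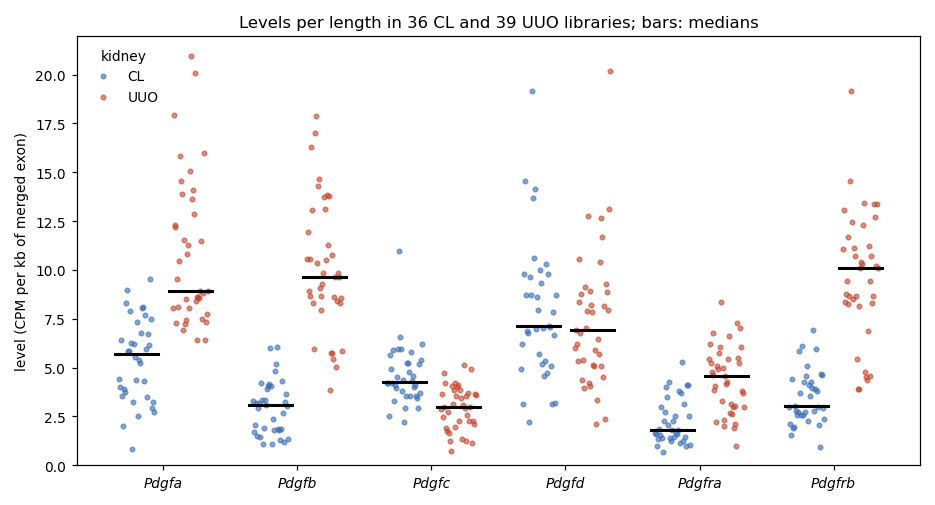
Level of each member in CPM per kb of merged exon (vertical axis) in 36 CL and 39 UUO libraries, 1 point per library, with a bar at the median. *Pdgfb* and *Pdgfrb* sit near 3 in CL kidneys and near 10 in UUO kidneys, whereas the *Pdgfd* medians are 7.11 and 6.90.

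Which PDGF genes respond to obstruction was asked first, in a fit over all 75 libraries that averages the response over the 6 genotypes or treatments with equal weight. Of the 6 members, 5 were called at an adjusted p under 0.05 (quasi-likelihood test of edgeR, Benjamini-Hochberg over all genes), beside 50.6% of the 12210 genes tested, 25.8% higher and 24.8% lower. *Pdgfb*, *Pdgfrb*, *Pdgfa*, and *Pdgfra* rose, *Pdgfc* fell, and *Pdgfd* did not pass the test. The median gene moved by 0.02 on the log2 scale, and 51.1% of calls were higher. Without TMM factors the median gene moved by 0.20 and 73.5% of calls were higher, and within the 6 genotypes or treatments the share of higher calls went from 46.5% to 62.1% with these factors to 65.4% to 78.8% without.

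Among the ligands *Pdgfb* responded most. Its level had a median of 12.8 CPM in CL libraries (4.51 to 25.3) and of 40.1 CPM in UUO libraries (16.0 to 74.3). In IgG mice it was 4.58, 13.4, and 17.5 CPM (lowest, median, highest) in CL and 24.7, 51.3, and 74.3 CPM in UUO kidneys, and in ABT mice 6.26, 12.2, and 13.8 CPM against 36.0, 44.0, and 67.8 CPM. The 2 kidneys did not overlap in either treatment, nor in VeWT mice (4.96 to 17.9 against 21.0 to 41.0 CPM), and genes higher without overlap made up 4.18%, 3.85%, and 3.28% of those tested in IgG, ABT, and VeWT mice. Averaged over the 6 genotypes or treatments, the log2 fold change of *Pdgfb* was 1.78 (SE 0.12, adjusted p = 7.99e-21), larger than that of 97.0% of genes.

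*Pdgfa*, the other classical ligand, which signals through the alpha receptor, rose less. Its level had a median of 17.8 CPM in CL (2.58 to 29.8) and of 27.8 CPM in UUO libraries (19.9 to 65.4). Over all libraries the kidneys overlapped, as they did for *Pdgfb*. Within treatments or genotypes *Pdgfa* overlapped in IgG, VeWT, and VeKO mice. It did not in ABT mice (6.26 to 19.9 against 22.6 to 55.9 CPM), where 3.85% of genes were higher without overlap. The average log2 fold change was 1.01 (SE 0.12, adjusted p = 2.53e-11). Of the ligands that need cutting, *Pdgfc* went from a median of 21.8 CPM in CL (11.4 to 55.8) to 15.2 CPM in UUO libraries (3.59 to 26.2) and fell by 0.51 on the log2 scale (SE 0.11, adjusted p = 8.61e-05). *Pdgfd* was at a median of 22.4 CPM in CL (6.99 to 60.5) and 21.8 CPM in UUO libraries (6.70 to 63.6) with overlapping ranges, and the average log2 fold change was -0.04 (95% interval -0.32 to 0.23, adjusted p = 0.822).

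Of the receptors *Pdgfrb*, which binds PDGFB and PDGFD and marks pericytes and mesangial cells, had the larger average response. Its level had a median of 16.5 CPM in CL (4.96 to 37.9) and of 55.2 CPM in UUO libraries (21.4 to 105), and the log2 fold change was 1.36 (SE 0.11, adjusted p = 4.71e-18). The CL and UUO kidneys did not overlap in IgG (13.9 to 33.5 against 46.7 to 105 CPM), ABT (8.54 to 24.2 against 45.2 to 71.5 CPM), and VeWT mice (4.96 to 25.5 against 45.5 to 73.3 CPM). *Pdgfra*, the alpha receptor and a marker of fibroblasts, went from a median of 18.1 CPM in CL (6.99 to 52.9) to 45.6 CPM in UUO libraries (10.1 to 83.6). Its average log2 fold change was 0.94 (SE 0.14, adjusted p = 1.78e-08), and CL and UUO kidneys of ABT mice did not overlap (9.96 to 30.0 against 38.8 to 67.9 CPM) whereas those of IgG mice did (6.99 to 42.5 against 22.0 to 83.6 CPM).

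**Figure D2:**
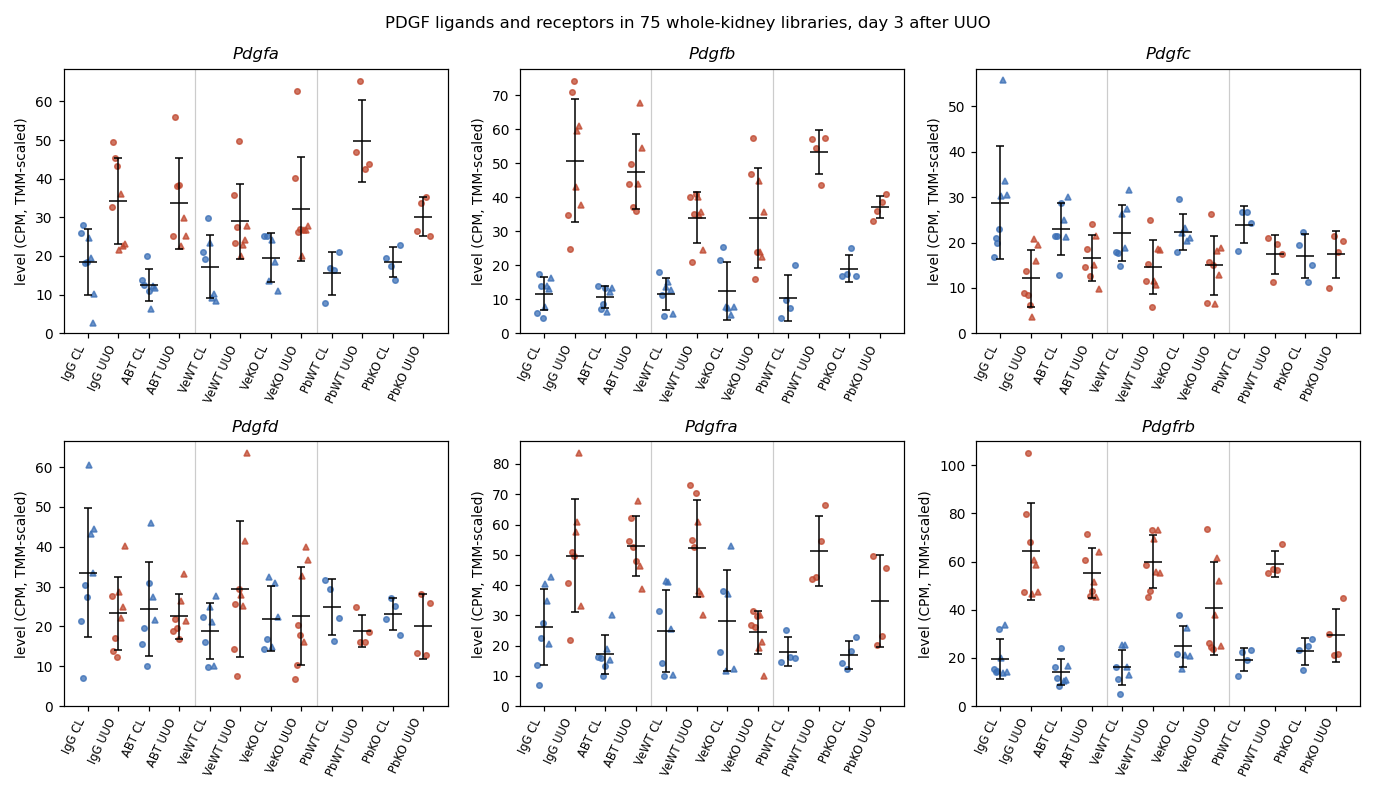
Level of each member (CPM, vertical axis) in every library of the 12 groups, CL in blue and UUO in red, circles for plain and triangles for joined library names, and black bars for the mean and SD. *Pdgfb* and *Pdgfrb* lie higher in UUO than in CL kidneys with no overlap in IgG, ABT, VeWT, and PbWT mice.

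By genotype or treatment, *Pdgfa*, *Pdgfb*, *Pdgfra*, and *Pdgfrb* rose with UUO in IgG, ABT, VeWT, and PbWT mice, and in VeKO and PbKO mice *Pdgfb* was the member that passed the test, with exceptions under some other settings. In IgG mice 5 of 6 members were called, beside 34.3% of 9579 genes, and 4 of them rose (16.0% of genes) while 1 fell (18.4%). *Pdgfc* fell by 1.11 on the log2 scale (SE 0.27, adjusted p = 0.00133). Without the libraries that held *Xist* and Y-linked reads the IgG calls of *Pdgfa*, *Pdgfc*, and *Pdgfra* were lost (adjusted p = 0.108, 0.0529, and 0.134). Those of *Pdgfa* and *Pdgfra* were also lost among joined names (0.137 and 0.0687), that of *Pdgfc* among plain names (0.0623), and that of *Pdgfra* after thinning to the shallowest library (0.187). In the same order, the log2 fold changes there were 0.74, 0.71, -0.96, and 0.60, beside 0.84 for *Pdgfa* and 0.88 for *Pdgfra* with all IgG libraries. In ABT mice 4 were called (25.3% of genes, 12.7% higher), with *Pdgfb* at 2.18 (SE 0.25) and *Pdgfrb* at 1.99 (SE 0.23) on the log2 scale. In VeWT mice 4 were called (18.4% of 11916 genes, 10.0% higher), and the calls of *Pdgfa* (log2 fold change 0.83, adjusted p = 0.0388) and *Pdgfra* (1.02, adjusted p = 0.0281) were each lost without any single one of several libraries. For *Pdgfa* these were VeWT CL replicates 5, 6, and 7 and VeWT UUO replicates 1, 4, and 8 (adjusted p up to 0.112), and for *Pdgfra* VeWT CL replicates 2, 3, 6, and 7 and VeWT UUO replicates 1, 4, and 5 (up to 0.0780). *Pdgfc* in VeWT mice, at -0.61 (adjusted p = 0.0866), passed without VeWT UUO replicate 3 (adjusted p = 0.0432), with the form of name as a covariate (0.0278), among joined names (0.0495), and in a fit over all 12 groups (0.0308). The VeWT call of *Pdgfa* was also lost among plain names (adjusted p = 0.263) and that of *Pdgfra* among joined names (0.394), and both were lost without the libraries that held *Xist* and Y-linked reads (0.152 and 0.115) and without the 8 libraries whose number carries both genotypes (0.233 and 0.122). That of *Pdgfra* was lost as well without libraries under 300000 counts (0.0626). *Pdgfd* went both ways across genotypes and treatments, from -0.48 in IgG (adjusted p = 0.188) to 0.66 in VeWT mice (unadjusted p = 0.0490, adjusted p = 0.167). In VeWT mice it passed with the form of name as a covariate (0.75, adjusted p = 0.0246) and among joined names (1.00, adjusted p = 0.0341).

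In VeKO mice 1 member was called (7.95% of genes, 4.47% higher), *Pdgfb*, which rose by 1.65 on the log2 scale (SE 0.35, adjusted p = 0.00283). *Pdgfrb* was at 0.73 (95% interval 0.17 to 1.30, adjusted p = 0.104), and it passed with the form of name as a covariate (0.80, adjusted p = 0.0185), among joined names (0.95, adjusted p = 0.0216), and in a fit over all 12 groups (0.73, adjusted p = 0.0301), but not among plain names (0.17, adjusted p = 0.973). No call was made for *Pdgfra*, at -0.26 (-0.99 to 0.48, adjusted p = 0.779). The VeKO value of *Pdgfb* differed between the forms of library name, with 2.14 (adjusted p = 8.46e-05) among joined names and 0.42 (adjusted p = 0.928) among plain names, where 2 VeKO CL libraries remained. Of these, VeKO CL replicate 2 stood apart, with injured tubule markers that summed to 1643 CPM (505 to 690 in the other 5 VeKO CL libraries), fibroblast markers to 623 CPM (82.3 to 277), and macrophage markers to 354 CPM (39.5 to 125). It also had the highest *Pdgfb* and *Pdgfrb* of its group, 25.3 and 37.9 CPM. Without it *Pdgfb* rose by 1.90 (adjusted p = 0.000426) and *Pdgfrb* was at 0.85 (adjusted p = 0.0565) in VeKO mice. In PbWT mice 4 members were called (37.3% of 10923 genes, 17.9% higher) and in PbKO mice 1 (6.34%, 3.94% higher). *Pdgfra* in PbKO mice, at 0.89 (adjusted p = 0.0925), passed with no filter on low counts (adjusted p = 0.0437). UUO libraries lay above all CL libraries for *Pdgfa*, *Pdgfb*, *Pdgfra*, and *Pdgfrb* in PbWT mice (16.8% of genes), for *Pdgfa* and *Pdgfb* in PbKO mice (6.19%), and for no member in VeKO mice (0.688%). Fewer genes of any kind were called in the mutants, and a member called in 1 genotype and not in the other is not shown to differ without the tests of the difference that follow.

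**Figure D3:**
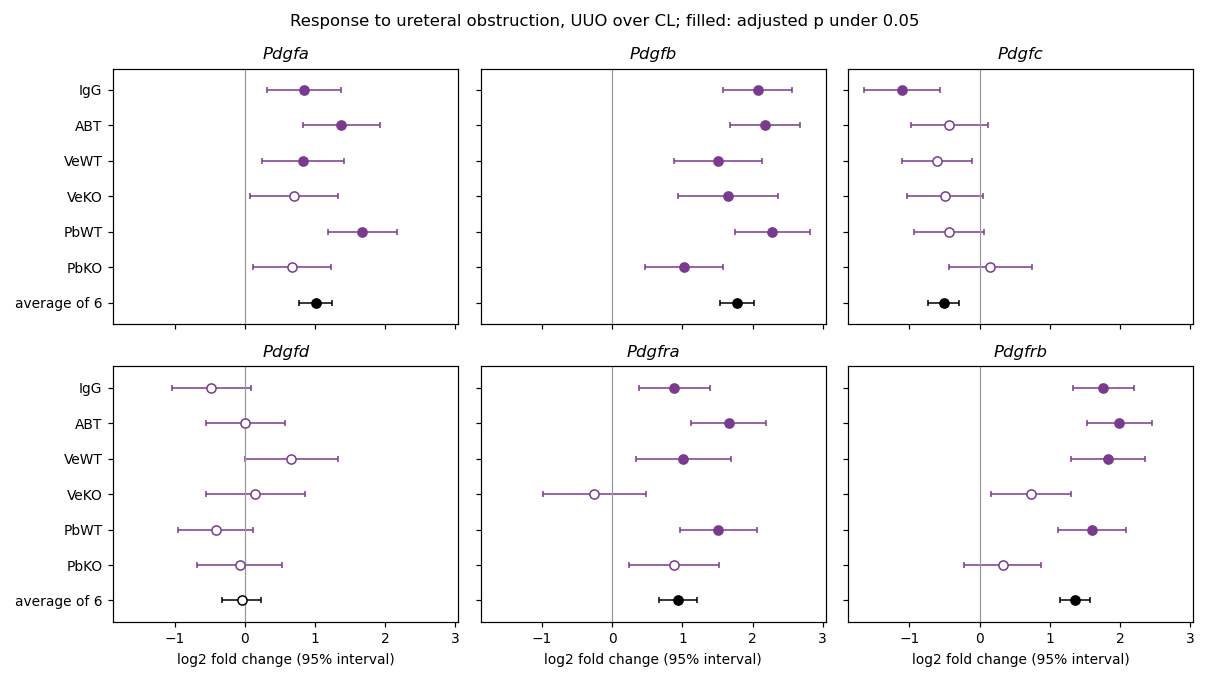
Log2 fold change of UUO over CL kidneys (horizontal axis) with its 95% interval for each member, in the 6 genotypes or treatments and averaged over them in black. Filled points passed an adjusted p of 0.05. *Pdgfb* is filled in every row, *Pdgfd* in none, and the *Pdgfra* interval spans 0 in VeKO mice.

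The *Pdgfb* arm asks how the kidney responds to obstruction when this ligand is deleted, and the targeted gene was read first in every library. In CL kidneys the PbWT libraries had 4.51, 9.81, 7.42, and 20.0 CPM and the libraries labelled PbKO 16.8, 17.3, 25.0, and 16.9 CPM, which rested on 4 to 19 and 7 to 17 counts. The libraries labelled PbKO were above 3 of the 4 PbWT libraries, a log2 difference of 0.78 (SE 0.33, unadjusted p = 0.0261, adjusted p = 1.00) in the direction opposite to the label. It ran from 0.50 without PbWT CL replicate 1 to 1.38 without PbWT CL replicate 4. The PbWT CL group includes kidneys of sham-operated mice, and their part in this difference was not tested. In UUO kidneys the PbWT libraries had 57.2, 54.6, 43.7, and 57.6 CPM and the libraries labelled PbKO 33.2, 36.0, 38.6, and 40.8 CPM. All 4 were lower than every PbWT library, yet the difference of -0.47 on the log2 scale (95% interval -0.91 to -0.04, adjusted p = 0.124) did not pass the quasi-likelihood test. It passed edgeR's exact test (-0.46, adjusted p = 0.0396) and, without TMM factors, the quasi-likelihood test (-0.73, adjusted p = 0.0117). Gene counts sum over all exons, and which exons the floxed allele removes is not stated, so this is an incomplete check of the label, and PbKO stands for the libraries so labelled in all that follows.

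The receptor that PDGFB binds was lower in obstructed kidneys labelled PbKO. *Pdgfrb* had 55.3, 57.0, 56.5, and 67.3 CPM in the PbWT UUO libraries and 29.8, 21.4, 21.4, and 44.8 CPM in those labelled PbKO, and the groups did not overlap. It fell by 0.97 on the log2 scale (SE 0.22, adjusted p = 0.00242). *Pdgfa* had 47.0, 65.4, 42.5, and 43.9 CPM against 26.5, 33.8, 35.2, and 25.1 CPM and fell by 0.69 (SE 0.21, adjusted p = 0.0233). This call was lost without PbWT UUO replicate 2 (-0.53, adjusted p = 0.114) or PbKO UUO replicate 4 (-0.58, adjusted p = 0.0954). It was also lost in a fit over all 12 groups (-0.71, adjusted p = 0.238) and after thinning (-0.58, adjusted p = 0.234). These 2 of 6 members were called lower, beside 6.58% of 10923 genes called lower and 18.6% called at all, and 3 of 6 were lower without overlap, beside 9.78% of genes. Of all calls in this comparison 64.7% were higher in kidneys labelled PbKO, and without TMM factors, which moved the median gene to -0.28, 21.9% were, with *Pdgfb* and *Pdgfra* called lower as well.

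*Pdgfra* had 41.9, 42.6, 54.5, and 66.3 CPM in the PbWT UUO libraries and 49.7, 20.3, 23.2, and 45.6 CPM in those labelled PbKO. The groups overlapped in 2 libraries labelled PbKO, and the log2 difference was -0.63 (95% interval -1.13 to -0.13, adjusted p = 0.0731). It passed without PbKO UUO replicate 1 (adjusted p = 0.0378) or replicate 4 (0.0213), the former being the shallowest library of the arm with 337545 counts, and also without TMM factors (0.00838) and with no filter on low counts (0.0305). *Pdgfc* and *Pdgfd* differed by 0.11 (95% interval -0.40 to 0.61) and 0.17 (-0.37 to 0.71). In CL kidneys no member was called between the genotypes, nor any other of the 10923 genes (0%), with 378 genes and 1 member at an unadjusted p under 0.05 and 0 genes by DESeq2 and by edgeR's exact test.

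The response to UUO itself was smaller in mice labelled PbKO for *Pdgfb* and *Pdgfrb*. *Pdgfb* rose by 2.28 (SE 0.26) in PbWT and by 1.03 (SE 0.27, adjusted p = 0.0231, not called without PbKO CL replicate 1, 2, or 4 or PbKO UUO replicate 4) in mice labelled PbKO, and the difference of these log2 changes was -1.26 (SE 0.39, adjusted p = 0.0461). The rise in mice labelled PbKO was also not called in a fit over all 12 groups (1.00, adjusted p = 0.191) or after thinning (0.57, adjusted p = 0.349). The difference of the *Pdgfb* responses combines the lower UUO value (-0.47) with the higher CL value (0.78) of the libraries labelled PbKO, neither of which was called alone. By the study's account the 4 PbWT CL kidneys include those of 2 sham-operated mice. Their part in the PbWT responses and in the differences was not tested. *Pdgfrb* rose by 1.60 (SE 0.23) in PbWT mice and was at 0.33 (SE 0.27, adjusted p = 0.540) in PbKO mice, a difference of -1.27 (SE 0.36, adjusted p = 0.0275). These were 2 of 6 members, beside 8.56% of genes called at all and 1.90% called lower. The *Pdgfb* call was lost on leaving out any 1 of 12 of the 16 libraries, that is, each one but PbWT CL replicate 4, PbKO CL replicate 1, PbWT UUO replicate 3, and PbKO UUO replicate 4 (adjusted p up to 0.110). The *Pdgfrb* call was lost without PbWT CL replicate 1, PbKO CL replicate 4, PbWT UUO replicate 4, or PbKO UUO replicate 2 or 3 (up to 0.103). The values stayed between -1.85 and -0.97 and between -1.65 and -1.09. In a fit over all 12 groups neither was called (-1.31 and -1.26, adjusted p = 0.311 and 0.245), and over 6 alternatives the adjusted p ran from 0.0166 to 0.311 and from 0.0106 to 0.245. With DESeq2 the *Pdgfb* difference had an adjusted p of 0.0501. *Pdgfa* differed by -1.01 (SE 0.37, adjusted p = 0.0952), which passed without TMM factors (-1.30, adjusted p = 0.0310), and *Pdgfra* by -0.63 (SE 0.42, adjusted p = 0.413).

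Markers of other cell types moved with these values. In UUO kidneys the 6 proximal tubule markers summed to 7234 to 21256 CPM in the libraries labelled PbKO and to 2964 to 4355 CPM in PbWT libraries, with 5 of 6 called higher. The 7 fibroblast markers summed to 342 to 855 against 962 to 1352 CPM, with all 4 that could be tested called lower, and 2 of 7 pericyte, smooth muscle, and mesangial, 3 of 8 endothelial, 2 of 6 macrophage, and 1 of 8 injured tubule markers were called lower. No pericyte, proximal tubule, or injured tubule marker was at 0 throughout a group. The part of these cell types in the *Pdgfrb*, *Pdgfa*, and *Pdgfra* values was not tested.

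**Figure D4:**
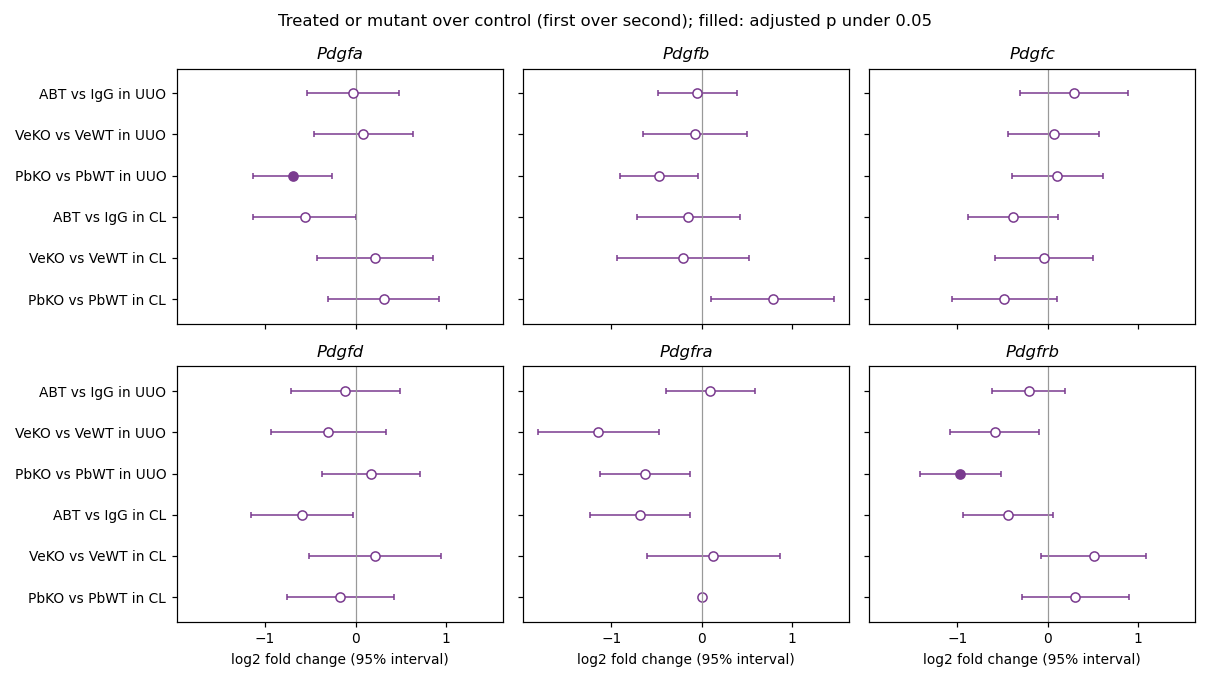
Log2 fold change of the treated or mutant over the control group (horizontal axis) with its 95% interval for each member, in UUO and CL kidneys of the 3 arms. Filled points passed an adjusted p of 0.05, which only *Pdgfa* and *Pdgfrb* did, in PbKO against PbWT UUO kidneys. The interval is not drawn for *Pdgfra* in CL kidneys of the *Pdgfb* arm, whose difference was 0.00.

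In the *Veptp* arm the targeted gene *Ptprb* was lower in the mutants without passing the test. It was 28.1, 59.2, and 74.4 CPM (lowest, median, highest) in VeWT CL and 25.1, 32.8, and 42.1 CPM in VeKO CL kidneys, and 24.9, 38.9, and 87.4 CPM against 12.1, 26.2, and 62.7 CPM in UUO kidneys. The groups overlapped in both kidneys, with log2 differences of -0.63 (SE 0.36, unadjusted p = 0.0920) in CL and -0.69 (SE 0.33, unadjusted p = 0.0435) in UUO. Levels also differed by form of library name. Among plain names *Ptprb* was 61.2 to 74.4 CPM in 3 VeWT CL and 25.1 to 42.1 CPM in 2 VeKO CL libraries. Among joined names the CL means were 38.5 and 32.2 CPM. In UUO kidneys the VeWT and VeKO means were 69.3 and 44.5 CPM for plain names and 27.2 and 18.3 CPM for joined names. Counts over the whole gene are an incomplete check here too, since the removed exons are not stated.

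Whether loss of *Veptp* changes PDGF genes in the injured kidney was asked next, and no member was called. In UUO kidneys edgeR called 0 of 11916 genes (0%) with 424 at an unadjusted p under 0.05, DESeq2 called 1 and edgeR's exact test 4, and none of these was a member. The alpha receptor stood out among the members. *Pdgfra* was 30.1, 53.7, and 73.0 CPM in VeWT and 10.1, 26.5, and 31.3 CPM in VeKO UUO kidneys, so that 6 of 8 VeKO libraries lay under every VeWT library. The log2 difference was -1.14 (SE 0.33, 95% interval -1.81 to -0.48), with an unadjusted p of 0.00147, rank 11 of 11916 genes, and an adjusted p of 1.00.

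*Pdgfrb* was 45.5, 57.3, and 73.3 CPM in VeWT and 23.9, 31.9, and 73.7 CPM in VeKO UUO kidneys, with 5 of 8 VeKO libraries under every VeWT library and 1 above all of them. The log2 difference was -0.59 (SE 0.24, unadjusted p = 0.0208, adjusted p = 1.00). The ligands differed by -0.30 to 0.09 on the log2 scale, and *Pdgfb* was 21.0, 35.4, and 41.0 CPM in VeWT and 16.0, 29.8, and 57.5 CPM in VeKO UUO kidneys. The response to UUO differed by -1.27 for *Pdgfra* (SE 0.48, unadjusted p = 0.0134) and by -1.10 for *Pdgfrb* (SE 0.37, unadjusted p = 0.00626), with 0 genes and 0 members called by edgeR and by DESeq2 and 324 genes at an unadjusted p under 0.05. In CL kidneys the members differed by -0.21 to 0.51, with 0 genes called by edgeR, its exact test, and DESeq2, and 229 genes but 0 members at an unadjusted p under 0.05.

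Within each form of library name the 2 receptors kept the direction in UUO kidneys. *Pdgfra* averaged 62.7 CPM ± 10.5 (SD, n = 4) in VeWT and 28.5 ± 2.46 (n = 4) in VeKO kidneys among plain names, and 41.5 ± 13.4 against 20.2 ± 8.27 among joined names. The log2 differences were -1.17 (adjusted p = 0.201) and -1.06 (adjusted p = 0.803). *Pdgfrb* differed by -0.79 (adjusted p = 0.398) and -0.55 (adjusted p = 0.803). With the number in joined names as a replicate block, *Pdgfra* was at -0.27 and *Pdgfrb* turned to 0.090. The differences of their responses then turned to 0.40 and 0.064. With the form of name as a covariate, *Pdgfra* was at -1.13 (adjusted p = 0.232). Without the 8 libraries whose number carries both genotypes, *Pdgfra* was at -0.96 (unadjusted p = 0.00807) and *Pdgfrb* at -0.53 (unadjusted p = 0.0970), and the *Pdgfb* response of VeKO mice was at 1.36 (adjusted p = 0.136) and no longer called. Without the libraries that held *Xist* and Y-linked reads, *Pdgfra* was at -0.99 (unadjusted p = 0.0112) and *Pdgfrb* at -0.47 (unadjusted p = 0.100). Fibroblast markers summed to 254 to 944 CPM in VeKO and to 868 to 1645 CPM in VeWT UUO kidneys (median log2 difference -1.11) with 0 of 6 tested called. Pericyte, smooth muscle, and mesangial markers summed to 191 to 328 against 299 to 498 CPM (median log2 difference -0.61) and endothelial markers to 148 to 316 against 223 to 372 CPM (-0.51), with 0 of 7 and 0 of 8 called. The part of these cell types was not tested.

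**Figure D5:**
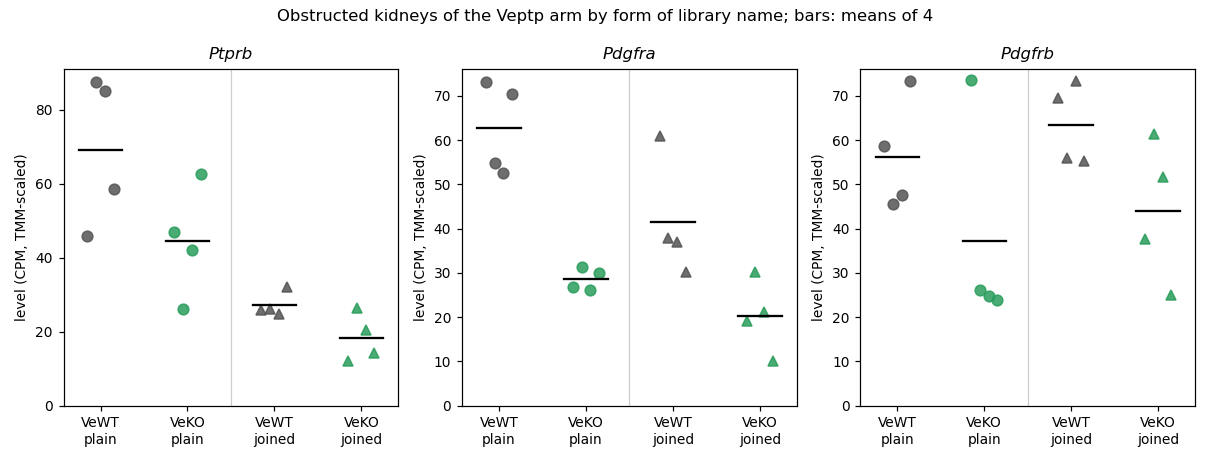
Level (CPM, vertical axis) of *Ptprb*, *Pdgfra*, and *Pdgfrb* in the UUO kidneys of VeWT (grey) and VeKO (green) mice, split by form of library name, 4 libraries each with a bar at the mean. *Pdgfra* means are 62.7 and 28.5 for plain and 41.5 and 20.2 for joined names.

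Antibody activation of TIE2 was compared in the same way. In UUO kidneys no member was called between ABT and IgG mice, beside 0% of 9579 genes, with 344 genes and 0 members at an unadjusted p under 0.05 and 0 calls by DESeq2 and edgeR's exact test. Members differed by -0.21 to 0.29 on the log2 scale. For *Pdgfb* the 95% interval of the difference ran from -0.48 to 0.39, and for *Pdgfrb*, at 46.7, 59.8, and 105 CPM in IgG and 45.2, 51.6, and 71.5 CPM in ABT kidneys, from -0.62 to 0.19.

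In CL kidneys the log2 differences between ABT and IgG mice were below 0 for all 6 members, except that *Pdgfc* was at 0.069 among plain names, and none was called, with 311 genes and 2 members at an unadjusted p under 0.05 and 0 calls by the 3 tools. *Pdgfra* was 9.96, 16.0, and 30.0 CPM in ABT against 6.99, 25.0, and 42.5 CPM in IgG kidneys (log2 difference -0.68, SE 0.27, unadjusted p = 0.0175). *Pdgfd* was 9.96, 21.6, and 45.9 CPM against 6.99, 32.0, and 60.5 CPM (-0.60, SE 0.28, unadjusted p = 0.0390). The groups overlapped for both. The response to UUO differed by 0.78 for *Pdgfra* (SE 0.36, unadjusted p = 0.0399, adjusted p = 1.00), and by 0.10 to 0.67 for the other members, of which *Pdgfb* and *Pdgfrb* were at -0.13 and -0.18 among plain names, with 0 genes called by edgeR and DESeq2 and 323 at an unadjusted p under 0.05.

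Other genes of the pathway were read from 5 lists. Over all genes 25.8% were called higher and 24.8% lower in the average response, against which the counts of each list are to be read. Of 8 genes that process or bind the ligands, 4 rose and 1 fell in the average response, with a median log2 fold change of 0.24 beside 0.02 over all genes. The largest were *Sparc*, a matrix protein that binds PDGFB (1.62, SE 0.11), *Lrp1*, an endocytic partner of the beta receptor (1.20, SE 0.09), and *Plat*, a protease that activates PDGFC (1.13, SE 0.15). Of 7 relatives of the receptors and their ligands, 3 of 6 tested rose, namely *Il34* (1.77, SE 0.23) and *Csf1* (1.64, SE 0.17), both ligands of the CSF1 receptor, and *Csf1r* itself (0.22, SE 0.08).

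Of 23 genes that act close to the receptors 11 rose and none fell (median 0.22), among them *Stat3* (0.98, SE 0.09) and *Pik3r1*, a regulatory subunit of PI3-kinase (0.53, SE 0.08). Of 10 negative regulators 7 rose and 1 fell (median 0.39), led by *Spry1* (0.59, SE 0.16), *Ptpn2* (0.54, SE 0.09), and, lower, the MAP kinase phosphatase *Dusp1* (-0.46, SE 0.18). Of 9 immediate-early genes 5 of 6 tested rose (median 1.18), led by *Myc* (2.45, SE 0.20), *Egr1* (1.44, SE 0.23), and *Jun* (1.35, SE 0.16). As background, these genes answer many signals besides PDGF.

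In UUO kidneys labelled PbKO 14 of the 49 genes of these lists that were tested were called lower than in PbWT and none higher, beside 6.58% of all genes called lower and 18.6% called at all. The fibroblast, endothelial, and macrophage markers called lower in the same libraries are given above, and their part in these values was not tested. They were *Pcsk5* (-0.79), *Plat* (-0.57), *Nrp1* (-0.68), *Lrp1* (-0.86), and *Sparc* (-0.80) of the ligand list, *Csf1r* (-0.64) and *Csf1* (-0.94), the signaling genes *Pik3r1* (-0.81) and *Stat3* (-0.63), the negative regulators *Cbl* (-0.67), *Ptpn1* (-0.55), and *Ptprj* (-0.55), and the immediate-early genes *Jun* (-0.79) and *Egr1* (-1.43), all log2 differences. List medians ran from -0.22 for the signaling genes to -0.89 for the immediate-early genes, beside -0.02 over all genes. The response to UUO was smaller in mice labelled PbKO for 6 of 49 list genes, beside 1.90% of all genes called lower, *Nrp1* (-0.63), the adaptor *Nck1* (-0.97), *Pik3r1* (-1.01), *Stat3* (-1.01), *Cbl* (-1.26), and *Jun* (-1.36). In the corresponding comparisons of the ABTAA and *Veptp* arms edgeR's quasi-likelihood test called no gene of any kind (0%), so no list gene was called there either.

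Genes most like each member were found by Spearman's rho of log2(CPM + 1) over the 75 libraries, among 10340 genes with a mean of at least 10 CPM. The libraries share the UUO response, so these values describe the set of libraries and carry no test. *Pdgfb* was closest to *Saa1*, *Vim*, and *Lcn2* (rho 0.870, 0.867, and 0.863), *Pdgfrb* to *Fn1*, *Lrp1*, and *Col4a1* (0.894, 0.884, and 0.881), *Pdgfra* to *Lhfp*, *F2r*, and *Pros1* (0.810, 0.807, and 0.795), and *Pdgfa* to *Tmsb10*, *S100a11*, and *Cdkn1a* (0.837, 0.801, and 0.797). *Pdgfc* was closest to *Scrn3*, *Idh3a*, and *Bpnt1* (0.673, 0.663, and 0.659), and *Pdgfd* to *Nde1*, *Sh3tc2*, and *C87436* (0.603, 0.586, and 0.584). For deviations from the mean of each group and form of name, *Pdgfrb* was closest to *Bgn*, *Col3a1*, and *Sparc* (0.655, 0.646, and 0.609) and *Pdgfra* to *Ecscr*, *Lhfp*, and *Bgn* (0.640, 0.637, and 0.637).

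The ligands were less closely matched in these deviations. Their leading genes were *Mepce*, *Abhd12*, and *Cxcl1* for *Pdgfa* (0.530, 0.513, and 0.459), *Cdo1*, *Gps2*, and *Ubd* for *Pdgfb* (0.514, 0.508, and 0.502), *Gskip*, *Slc16a11*, and *Nmnat3* for *Pdgfc* (0.526, 0.500, and 0.471), and *Aasdhppt*, *Cept1*, and *Pnpt1* for *Pdgfd* (0.550, 0.539, and 0.515). Between members, *Pdgfb* and *Pdgfrb* had a rho of 0.779 over all libraries and 0.307 in deviations, whereas the receptors *Pdgfra* and *Pdgfrb* had 0.712 and 0.556. *Pdgfd* lay between -0.386 and 0.245 with the other members over all libraries.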

How the data were processed

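RNA was measured in 75 whole kidneys with Smart-seq3 (4 wells per sample). The deposited table holds raw counts per gene that the authors made without normalization, and the submitters' processing notes name STAR 2.7.3a, UMI-tools 1.1.4, Subread 1.4.6-p5 with featureCounts, and the mm10 build. The annotation release and the strand setting were not given in the sources used here. Of 32245 genes, 4299 had no count. Totals of 172827 to 2341800 counts limit the precision of single members.

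Groups came from the sample labels. Counts were filtered with filterByExpr, scaled by TMM factors, and fitted with edgeR 4.0.16 (quasi-likelihood test, 1 fit per arm over its 4 groups, and 1 fit over all libraries for the average response to UUO) in R 4.3.3 with limma 3.58.1. P-values were adjusted by Benjamini-Hochberg over all genes tested, and genes were called at an adjusted p under 0.05. SE was taken from the F statistic. Alternatives were DESeq2 1.42.0, edgeR's exact test, no TMM factors, no filter or a mean count of at least 20, thinning, 1 fit over all 12 groups, form of name (plain or joined) as covariate or within each form, a replicate block, and leaving out libraries. The last 3 sets left out (without libraries under 300000 counts, without those with *Xist* and Y-linked reads, without the 8 with crossed numbers) were chosen after seeing the data. The scripts were tested on simulated data. No replicates agreed within sampling noise (lowest chi-square per degree of freedom 1.541).

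The numbers in joined names were checked for pairing by correlating deviations from group means of CL and UUO kidneys. In ABT mice the 3 pairs had r of 0.336, 0.169, and 0.133, all over 0.1, and were taken as paired. No r was computed for unmatched numbers, so these values alone do not show pairing. They also lie within the range of the *Veptp* arm. In the *Veptp* arm r was 0.0727 to 0.463, and the 4 numbers that carried both genotypes had r of 0.463, 0.291, 0.140, and 0.289. Because of these labels the numbers of this arm were not taken as pairs. Libraries with the same number also matched in sex-linked reads, mainly *Xist* for numbers 2 and 3 and Y-linked genes for the rest. Whether a number stands for 1 mouse was not tested.

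The members and the pathway and marker lists were chosen with earlier results of these data known. Named genes were the 6 members, *Ptprb*, pathway genes called in UUO kidneys between a treated or mutant group and its control or in the difference of responses, at most 3 per list with the largest called average response, and the 3 genes most like each member. One item that this rule names is not reported here. Loci came from GENCODE M21 and promoter windows from RefSeq, for 4 of 6 members. No window was found for *Pdgfb*, and member windows on chromosome 18, which holds *Pdgfrb*, were left out. Python 3.11.15, numpy 2.4.6, pandas 2.3.3, and matplotlib 3.10.9 were used.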

Additional observations from a re-analysis of the deposited data

Results flagged for a closer look

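A single library stood apart from the rest of its group in 5 of 72 sets of 1 member in 1 group, and chance alone gives about 1 in 20. *Pdgfa* was 62.7 CPM (12 counts) in VeKO UUO replicate 2, where the next of 8 libraries had 40.2 CPM. *Pdgfb* was 25.0 CPM (11 counts) in PbKO CL replicate 3 against 17.3 CPM in the next of 4. *Pdgfc* was 55.8 CPM (40 counts) in IgG CL replicate 6 against 33.5 CPM in the next of 8. *Pdgfra* was 25.2 CPM (18 counts) in PbWT CL replicate 2 against 16.3 CPM, and *Pdgfrb* was 67.3 CPM (69 counts) in PbWT UUO replicate 4 against 57.0 CPM, each in a group of 4.

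The response to UUO differed between mice labelled PbKO and PbWT mice for *Pdgfb* by -1.26 and for *Pdgfrb* by -1.27 on the log2 scale, each by edgeR's test of the difference itself (adjusted p = 0.0461 and 0.0275). Without PbKO CL replicate 3 the *Pdgfb* difference had an adjusted p of 0.105, and without PbWT UUO replicate 4 the *Pdgfrb* difference had one of 0.0505.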

How the results depend on the processing

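Depth limits these results, since members rested on as few as 1 count. The number of the 6 members called changed by over 1.5 times as follows. Thinning to the shallowest library, which tests fewer genes on fewer counts, gave 1 member in place of 5 in IgG, 2 in place of 4 in ABT and in VeWT, 0 in place of 1 in VeKO and in PbKO, 1 in place of 2 between PbKO and PbWT UUO kidneys, and 3 in place of 5 in the average response. A mean count of at least 20 left 2 in IgG and 2 in ABT mice, because fewer members were tested. For the settings that follow the cause was not tested. All 12 groups in 1 fit gave 2 in VeKO, 0 in PbKO, 1 between PbKO and PbWT UUO kidneys, and 0 in the difference of responses in that arm, where DESeq2 gave 1. Leaving out TMM factors gave 4 between PbKO and PbWT UUO kidneys, and no filter gave 2 in PbKO. Joined names alone gave 3 in IgG and 2 in VeKO, plain names 0 in VeKO, and the form of name as a covariate 2 in VeKO. Without libraries with *Xist* and Y-linked reads 2 were called in IgG and 2 in VeWT, and without the 8 libraries with crossed numbers 2 in VeWT and 0 in VeKO. Leaving out 1 library gave 2 to 5 in VeWT, 0 to 1 in PbKO, 1 to 3 between PbKO and PbWT UUO kidneys, and 0 to 2 in the difference of their responses, and 5 in IgG, 4 in ABT, 1 in VeKO, and 4 in PbWT every time. *Pdgfb* in PbKO mice was not called without PbKO CL replicate 1, 2, or 4 or PbKO UUO replicate 4 (adjusted p 0.0536 to 0.0827).

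With a replicate block, 4 members were called in ABT mice, as without the block in the same 6 libraries, and 4 in VeWT and 3 in VeKO mice, among them *Pdgfd* in VeWT (1.23, adjusted p = 0.000940) and *Pdgfc* in VeKO mice (-1.06, adjusted p = 0.0197). In the *Veptp* arm libraries with the same number also matched in *Xist* or Y-linked reads, but 4 numbers carry both genotypes. There the block turned *Pdgfra* in VeWT mice to -0.12 and *Pdgfrb* between VeKO and VeWT UUO kidneys to 0.090. It turned the differences of responses to 0.40 (*Pdgfra*) and 0.064 (*Pdgfrb*), while *Pdgfra* between VeKO and VeWT UUO kidneys was at -0.27. *Pdgfd* in the average response turned to 0.16 without TMM factors and to 0.022 with a mean count of at least 20. Counts of genes called moved by over 1.5 times from 2034 to 1092 (thinned) and 321 (12 groups) between PbKO and PbWT UUO kidneys, from 935 to 517 and 22 for their responses, from 692 to 325 and 129 in PbKO, from 4076 to 2280 and 2500 in PbWT, from 947 to between 0 and 3343 in VeKO, from 2194 to between 791 and 4044 in VeWT, from 3290 to 1602 in IgG, from 2420 to 1024 in ABT, and from 6181 to 3145 in the average. Where edgeR called 0 genes, other settings called at most 6 between ABT and IgG UUO kidneys and 1 between CL kidneys, at most 4 between VeKO and VeWT UUO kidneys, 8 between CL kidneys, and 4 in the difference of responses, and at most 16 between PbKO and PbWT CL kidneys. Differences between groups that were not called also changed sign for several members under some settings, in each arm. The exact test could not be run for differences of responses or the average, and the form of name could not enter the *Pdgfb* arm, which has 1 form.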

Other observations

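Marker lists of other cells were read beside the members. In the average response to UUO 6 of 6 macrophage markers rose (median log2 fold change 2.09), 1 of 2 tested platelet markers rose, 1 of 5 tested fat cell markers rose, and of 5 podocyte markers 1 rose and 2 fell. Of the 8 endothelial markers 1 rose and 2 fell (median 0.07), and of 7 pericyte, smooth muscle, and mesangial markers 4 rose and 1 fell (median 0.43). None of 5 lymphocyte and neutrophil markers passed the filter on low counts.

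*Ptprb*, the gene deleted in the *Veptp* arm, also differed in the *Pdgfb* arm. It rose by 0.63 on the log2 scale with UUO in PbWT mice (SE 0.19, adjusted p = 0.00993) and was at -0.49 in mice labelled PbKO (SE 0.20, adjusted p = 0.164), and the responses differed by -1.12 (SE 0.28, adjusted p = 0.0107, edgeR's quasi-likelihood test), beside 8.56% of genes called. The difference combines a value of 0.64 between libraries labelled PbKO and PbWT libraries in CL kidneys (unadjusted p = 0.00433, adjusted p = 1.00) with one of -0.48 in UUO kidneys (adjusted p = 0.0757), neither of which was called. Kidneys of sham-operated mice are among the PbWT CL libraries here too. Of the 8 endothelial markers 3 were called lower in these UUO kidneys, and their median difference of responses was -0.48. Their part in the *Ptprb* values was not tested.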
